A study of Rattus norvegicus with 17 samples.

Results

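The 10 genes described here are circadian clock genes, measured by total RNA sequencing of rat gastrocnemius, a calf muscle of mostly fast fibers. They were chosen by gene name: Arntl, Clock, Per1, Per2, Per3, Cry1, Nr1d1, Nr1d2, Dbp and Tef. All 10 were found once each among the 32495 named entries of the deposited count table, and all 10 were among the 11856 genes that passed the filter on low counts. The rats were healthy, bore a tumor without chemotherapy, or bore a tumor and received chemotherapy, and every group was on the control diet. The labels used here give no strain, age, tumor type, chemotherapy agent or hour of tissue collection, and the title of the series speaks of human muscle although every library is from rat. The comparisons ask how the clock genes of muscle differ with a tumor and with its treatment.

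Of the 17 libraries, 2 from the chemotherapy group (libraries 11 and 12) stood apart by their likeness. Between them the chi-square over genes was 2.04 per degree of freedom, and no other pair of that group came under 5.47. They were summed and counted as 1 sample, which left 5 healthy, 5 tumor and 6 chemotherapy samples. Total counts per deposited library ran from 3023899 to 15777909. The header gives each library a suffix, MB or VM, of unstated meaning. Healthy libraries 1 to 4 and chemotherapy library 11 carry MB, while VM marks every tumor library, healthy library 5 and 5 chemotherapy samples. Nothing says that the samples are separate animals, so p-values measure only the spread between these samples. Of the 10 skeletal muscle markers listed, 7 were in the table and none was at 0 in every sample. Their summed level was 208590 to 311498 CPM (counts scaled to a common library size) in healthy samples, 168677 to 234366 with a tumor and 169694 to 211832 with chemotherapy.

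The circadian clock is a loop of transcription factors found in most cells, muscle fibers included. CLOCK and the Arntl product BMAL1 bind E-box DNA and switch on the Per and Cry genes, whose proteins then inhibit that pair. The same pair switches on Nr1d1 and Nr1d2, which encode the REV-ERB repressors of Arntl, and Dbp and Tef, which encode activators that bind D-box DNA. In a normal day Arntl RNA is high when Dbp and Per RNA are low, and in muscle the loop times genes of glucose and lipid use.

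The members' own promoters were searched for the short DNA motifs through which these proteins are known to act. RefSeq windows of build GRCr8, from 250 bases before to 50 bases after a start site, were found for 9 of the 10 genes, 11 windows in all, with Arntl listed as Bmal1. Each was searched on both strands for the E-box CACGTG, the related E-prime box CACGTT, the D-box forms TTATGTAA and TTACGTAA, and TAGGTCA, the core bound by REV-ERB and ROR proteins. None of these motifs contains another. Of all 33469 windows, 6.42% hold CACGTG, 4.83% hold CACGTT, 0.893% hold TTATGTAA, 0.120% hold TTACGTAA and 2.63% hold TAGGTCA. At least 1 match was found in 5 of the 11 windows, from 4 genes. The windows below are shown because they hold motifs of the proteins named above, 1 for each of the 4 genes, and the capitals mark the matched letters.

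The Arntl window is chr1:176766078-176766377 on the plus strand, with the REV-ERB/ROR core starting at base -16 from the start site. That of Nr1d1, the first of a pair, is chr10:84229405-84229704 on the minus strand, with an E-box at -191. The Per2 window is chr9:99496944-99497243 on the minus strand, with a D-box at -192 and an E-prime box at -62. The Tef window is chr7:115206577-115206876 on the plus strand, with an E-box at -198.
Arntl: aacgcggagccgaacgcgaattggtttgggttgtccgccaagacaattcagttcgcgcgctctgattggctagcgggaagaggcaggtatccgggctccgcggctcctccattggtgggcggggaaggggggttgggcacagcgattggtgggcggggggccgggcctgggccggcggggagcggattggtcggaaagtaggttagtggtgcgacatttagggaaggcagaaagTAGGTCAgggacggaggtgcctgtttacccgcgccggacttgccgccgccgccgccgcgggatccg
Nr1d1: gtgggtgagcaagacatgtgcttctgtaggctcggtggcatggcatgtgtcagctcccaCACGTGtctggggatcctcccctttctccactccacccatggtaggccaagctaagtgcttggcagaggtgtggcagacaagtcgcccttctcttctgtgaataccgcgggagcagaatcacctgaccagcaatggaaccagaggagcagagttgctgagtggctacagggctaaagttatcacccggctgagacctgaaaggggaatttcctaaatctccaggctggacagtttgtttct
Per2: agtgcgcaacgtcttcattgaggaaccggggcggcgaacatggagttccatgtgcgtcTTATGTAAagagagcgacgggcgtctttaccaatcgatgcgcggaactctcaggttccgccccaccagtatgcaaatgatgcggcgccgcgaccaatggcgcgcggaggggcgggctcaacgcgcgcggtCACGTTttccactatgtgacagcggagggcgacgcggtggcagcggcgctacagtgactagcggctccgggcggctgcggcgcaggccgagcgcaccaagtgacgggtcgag
Tef: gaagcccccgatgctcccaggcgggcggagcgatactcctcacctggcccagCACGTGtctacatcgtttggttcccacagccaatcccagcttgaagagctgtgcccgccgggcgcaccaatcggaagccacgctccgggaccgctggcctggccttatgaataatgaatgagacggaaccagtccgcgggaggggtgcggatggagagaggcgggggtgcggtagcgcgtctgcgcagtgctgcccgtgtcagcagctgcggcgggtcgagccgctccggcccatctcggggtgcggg
The other Nr1d1 window holds an E-prime box at -174. These matches describe letters only, and binding was not measured.

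Nr1d1, which encodes the repressor REV-ERB alpha, was the only one of the 10 clock genes to pass the test in any comparison, and it was lower with chemotherapy than in healthy muscle. In healthy libraries 1 to 5 it stood at 161, 119.99, 154, 174 and 173 CPM. Tumor libraries 6 to 10 gave 124, 216, 262, 115 and 234 CPM. The 6 chemotherapy samples ran from 76.6 CPM through a median of 99.0 to 117. Every chemotherapy sample was thus below every healthy one, while the tumor samples spread across the healthy range on both sides. Levels were 156 ± 21.8 CPM (SD, n = 5) in healthy muscle, 190 ± 66.7 (n = 5) with a tumor and 97.7 ± 13.1 (n = 6) with chemotherapy. The fall against healthy muscle was -0.68 ± 0.19 on the log2 scale (95% interval -1.08 to -0.28), or 0.625 of the healthy level, with an edgeR quasi-likelihood adjusted p of 0.0334.

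In that comparison edgeR called 13.7% of all genes, 7.3% higher and 6.41% lower, and 1.97% of genes had chemotherapy samples wholly below the healthy ones (4% in either direction). At an unadjusted p under 0.05 there were 2 members (Nr1d1 and Clock), against 36.4% of all genes. With 1 of 10 members called, the clock genes lay close to that background. Scaling by total counts alone moved the median of all genes by 0.14 (log2) and called 1669 genes higher and 348 lower, against 865 and 760. Nr1d1 fell short of the threshold there, with an edgeR adjusted p of 0.0532.

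The call rests on few samples, as does the whole comparison: edgeR called 0 genes in all without healthy library 1, 3 or 4 or without chemotherapy library 13, 14 or 15. It was kept without healthy library 2 or 5, chemotherapy library 11, or any tumor library. Leaving out healthy library 1, 3 or 4 gave edgeR adjusted p-values of 0.0758, 0.0767 and 0.0986. Leaving out chemotherapy library 13, 14, 15, 16 or 17 gave 0.0642, 0.0824, 0.0664, 0.0568 and 0.0517. The suffix moves with this contrast, since 4 of the 5 healthy samples are MB and 5 of the 6 chemotherapy samples are VM. With the suffix as a term Nr1d1 differed by -0.63 on the log2 scale (edgeR adjusted p = 0.588), and among VM libraries alone, with 1 healthy sample, by -0.88 (0.595). Over all settings tried, the edgeR, DESeq2 and limma estimates ran from -0.88 to -0.26 and stayed below 0. The -0.26 came with 1 surrogate variable in the edgeR model (adjusted p = 0.875).

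Some cell type markers moved with this contrast too. Of the tested skeletal muscle markers, 3 of 7 were called lower with chemotherapy (Acta1, Ckm and Des), while 2 of 7 had a positive estimate. Of the smooth muscle and pericyte markers other than Des, which muscle fibers also express, 5 of 8 were called lower. Their summed level was 400.3 to 502 CPM in healthy samples, 371 to 542 with a tumor and 266 to 368 with chemotherapy. Of the tested fibroblast markers, 4 of 8 were called lower, at 4740 to 14421 CPM in healthy samples, 2915 to 13176 with a tumor and 2348 to 10940 with chemotherapy. Of the endothelial markers 1 of 9 was called higher and 1 lower, and of the adipocyte markers 1 of 7 was called higher. None of the 10 slow-fiber, 8 fast-fiber, 10 macrophage or 5 red blood cell markers tested was called. No gene of these lists was at 0 in every sample. Their part in the Nr1d1 result was not tested, and in bulk tissue fewer cells of a type and less RNA per cell cannot be told apart. In the RefSeq annotation Nr1d1 overlaps Thra, a thyroid hormone receptor gene. The library kit keeps strand, but whether the counting used it is not given, so the 2 genes' reads may be mixed and the Nr1d1 level is uncertain to that extent. Clock, Per2 and Cry1 likewise overlap uncharacterised genes of that annotation. Thra itself stood at 90.2 ± 14.5 CPM in healthy muscle, at 81.6 ± 8.60 with a tumor and at 78.2 ± 9.72 after chemotherapy, and its chemotherapy difference of -0.21 ± 0.13 (log2) had an edgeR adjusted p of 0.250.

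Chemotherapy samples were set against tumor samples as well. Nr1d1 differed by -0.96 ± 0.19 on the log2 scale (95% interval -1.36 to -0.56), 0.514 of the tumor level. The edgeR adjusted p was 0.415, since no gene in the table was called (0%, the smallest adjusted p being 0.172). Tumor library 9, at 115 CPM, lay inside the chemotherapy range, and without it the edgeR adjusted p was 0.0281. Leaving out any of the other 15 samples gave no call. The edgeR adjusted p then ran from 0.154 (without tumor library 6) to 0.9996 (without tumor library 8). DESeq2 called the gene with an adjusted p of 0.0118, and edgeR with 1 surrogate variable with 0.0267. The other 11 settings did not call it.

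**Figure D1:**
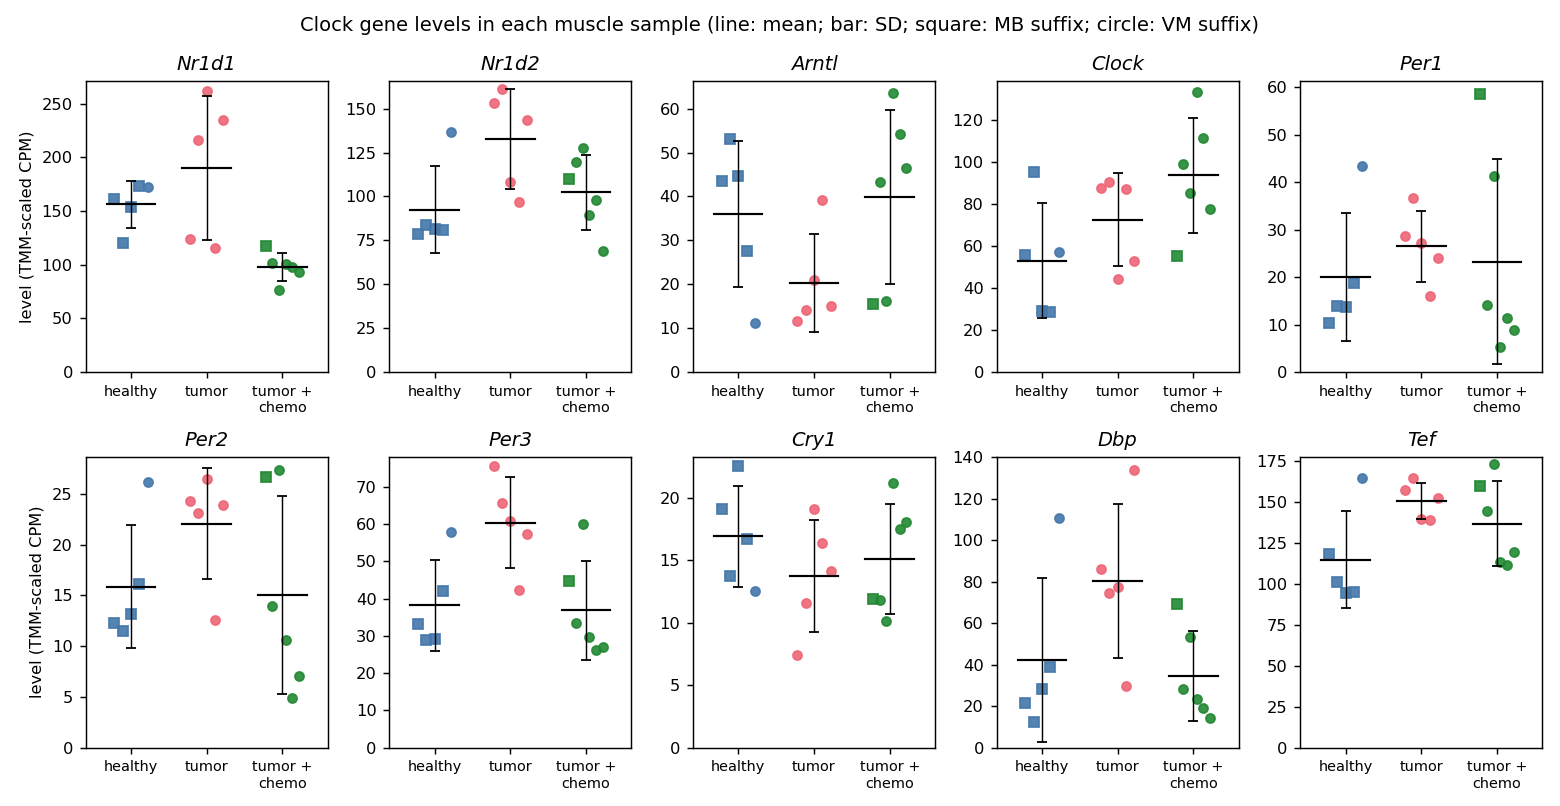
Level of each of the 10 clock genes in every sample, in CPM on a linear axis, by group. Circles are VM and squares MB libraries, each horizontal line is the group mean and each error bar is the SD. All 6 chemotherapy samples sit below the healthy samples for Nr1d1 (76.6 to 117 against 119.99 to 174 CPM), and groups overlap for the other 9 genes.

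The activator genes did not pass the test in any comparison. Arntl, which encodes BMAL1, stood at 43.4, 53.0, 44.7, 27.6 and 11.2 CPM in healthy libraries 1 to 5. In tumor libraries 6 to 10 it was 11.7, 14.2, 21.0, 39.2 and 15.05 CPM. Chemotherapy samples ran from 15.5 CPM through a median of 44.8 to 63.6. Healthy library 5 sat below every tumor sample, tumor library 9 at that of most healthy ones, and chemotherapy libraries 11 and 14 fell with the low samples. The tumor difference from healthy was -0.82 ± 0.44 on the log2 scale (95% interval -1.75 to 0.11, edgeR adjusted p = 0.319).

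Between chemotherapy and tumor, Arntl differed by 0.95 ± 0.43 on the log2 scale (edgeR adjusted p = 0.778). Against healthy muscle the chemotherapy difference was 0.13 ± 0.42, with an interval of -0.75 to 1.02 that leaves room for a change either way. The tumor difference turned to 0.85 among VM libraries alone, where library 5 is the only healthy sample. Leaving out a library moved the chemotherapy difference between -0.11 and 0.31.

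Clock, which encodes the partner of BMAL1, stood at 55.7, 95.005, 29.0, 28.4 and 57.0 CPM in healthy libraries 1 to 5 and at 87.7, 90.5, 44.1, 87.2 and 52.8 in tumor libraries 6 to 10. With chemotherapy it ran from 55.1 CPM through a median of 92.1 to 133. Healthy libraries 3 and 4 were the lowest of all 16 samples, and healthy libraries 1, 2 and 5 lay inside the chemotherapy range. The chemotherapy difference from healthy was 0.83 ± 0.30 on the log2 scale (95% interval 0.20 to 1.45, edgeR adjusted p = 0.0622).

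That value fell on either side of the threshold with the processing: DESeq2 gave an adjusted p of 0.0348, limma-voom 0.0313 and edgeR with total-count scaling 0.0430. Without healthy library 2 the edgeR adjusted p was 0.00781, and without chemotherapy library 11 it was 0.0324. Clock also moved with sequencing depth. Its log2 level, centred on group means, had r = -0.76 and rho = -0.69 with the log2 total count over the 16 samples (permutation p = 0.00084 and 0.0065, 0.0084 for r after Benjamini-Hochberg adjustment over the 10 genes). Without the 2 samples farthest in depth r was -0.65, and within VM libraries it was -0.45. Median totals were 7977064 counts in healthy samples, 6200550 with a tumor and 4926313 with chemotherapy. The part of depth in the Clock difference was not tested. In edgeR fits the Clock difference was 0.47 once the suffix entered the model (adjusted p = 0.688), 0.30 without healthy libraries 1, 3 and 4 (0.920) and -0.060 with 1 surrogate variable (0.984).

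None of the genes for the inhibitors of that pair passed the test, and the estimates of all 3 Per genes were positive for tumor against healthy. Per3 stood at 33.2, 28.8, 29.1, 41.9 and 58.0 CPM in healthy libraries and at 75.5, 65.8, 61.0, 42.2 and 57.3 in tumor libraries, and at 26.2 to 60.004 CPM with a median of 31.6 with chemotherapy. Healthy library 5 lay inside the tumor range, and healthy libraries 1 to 4 lay below it. The tumor difference from healthy was 0.65 ± 0.24 on the log2 scale (edgeR adjusted p = 0.240), and chemotherapy against tumor gave -0.70 ± 0.23 (edgeR adjusted p = 0.778).

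Per2 stood at 12.3, 11.5, 13.2, 16.1 and 26.2 CPM in healthy libraries and at 24.3, 23.1, 26.5, 12.5 and 23.9 in tumor libraries, with 4.88, 12.3 and 27.3 as lowest, median and highest of the chemotherapy samples. Healthy library 5 and tumor library 9 again stood on the far side of their groups. Per1, the period gene that also answers quickly to hormones and other stimuli, ranged most widely. It stood at 10.4, 14.004, 13.7, 18.7 and 43.5 CPM in healthy libraries, at 28.7, 36.7, 27.2, 16.04 and 24.0 in tumor libraries, and at 5.30 to 58.5 with a median of 12.8 in chemotherapy samples. Its highest and lowest chemotherapy samples thus differed 11.05-fold. The tumor differences from healthy were 0.46 ± 0.37 for Per2 and 0.39 ± 0.52 for Per1 (log2).

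Cry1, which encodes a cryptochrome, the partner of the PER proteins, stood apart from the Per genes. It was 19.1, 13.7, 22.5, 16.7 and 12.5 CPM in healthy libraries, 7.47, 11.6, 19.1, 16.4 and 14.2 in tumor libraries, and 10.1 to 21.2 with a median of 14.7 with chemotherapy. Its differences from healthy were -0.30 ± 0.24 with a tumor and -0.19 ± 0.23 with chemotherapy (log2), and all 3 groups overlapped.

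Nr1d2, which encodes the second REV-ERB protein, was not called in any comparison, unlike Nr1d1. It stood at 78.8, 84.0, 81.7, 80.8 and 137 CPM in healthy libraries and at 153, 161, 108, 96.9 and 144 in tumor libraries. In chemotherapy samples it was 69.0 to 127 CPM with a median of 104. Healthy libraries 1 to 4 were tightly grouped and below every tumor sample, while library 5 lay among them. The tumor difference was 0.52 ± 0.19 on the log2 scale (edgeR adjusted p = 0.242), and turned to -0.040 among VM libraries alone.

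The output activators did not pass the test either. Dbp, which encodes a D-box activator, stood at 21.3, 12.6, 28.1, 38.7 and 111 CPM in healthy libraries and at 86.4, 74.6, 77.4, 29.9 and 134 in tumor libraries. Chemotherapy samples ran from 14.3 CPM through a median of 25.7 to 69.2. Healthy library 5 and tumor library 9 once more lay with the other group. The tumor difference was 0.91 ± 0.52 on the log2 scale (95% interval -0.19 to 2.01, edgeR adjusted p = 0.342), and chemotherapy against tumor gave -1.19 ± 0.50 (edgeR adjusted p = 0.778). Among VM libraries alone the tumor difference was -0.46. The chemotherapy difference from healthy was -0.28 ± 0.50, and without healthy library 5 it was 0.45.

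Tef, which encodes a close relative of Dbp, varied least. Healthy libraries gave 118, 101, 94.3, 94.9 and 164 CPM and tumor libraries 157, 164, 139, 139 and 152, while chemotherapy samples ran from 111 through a median of 132 to 173. Healthy library 5 again lay with the tumor samples, above healthy libraries 1 to 4. The tumor difference was 0.39 ± 0.17 on the log2 scale (edgeR adjusted p = 0.249).

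Counted over the 10 genes, tumor against healthy gave 0 calls by edgeR, where 0% of all genes were called and the smallest adjusted p was 0.211. At an unadjusted p under 0.05 there were 3 members (Per3, Nr1d2 and Tef) against 18% of all genes, and 8 of 10 estimates were positive, with a median of 0.43 (log2) against 0.0097 over all genes. DESeq2 called 17 genes higher and 23 lower in that comparison, limma-voom called 0, and neither called a clock gene. No member had tumor samples wholly apart from healthy ones (0.995% of all genes did).

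For chemotherapy against healthy 5 of 10 estimates were positive, with a median of 0.051 against -0.018 over all genes. For chemotherapy against tumor 0 members were called by edgeR, and 4 (Nr1d1, Per3, Dbp and Arntl) had an unadjusted p under 0.05, against 5.78% of all genes. Of those estimates 3 of 10 were positive, with a median of -0.25 against 0.0040. No member's chemotherapy samples lay wholly apart from the tumor samples (0.481% of all genes did). DESeq2 called 2 genes higher and 7 lower there, Nr1d1 among the latter, and limma-voom called 0. The 3 comparisons share samples, so their signs are not independent. Counts over the 10 members are not counts of independent genes either, since many of them varied together within groups, as described below.

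**Figure D2:**
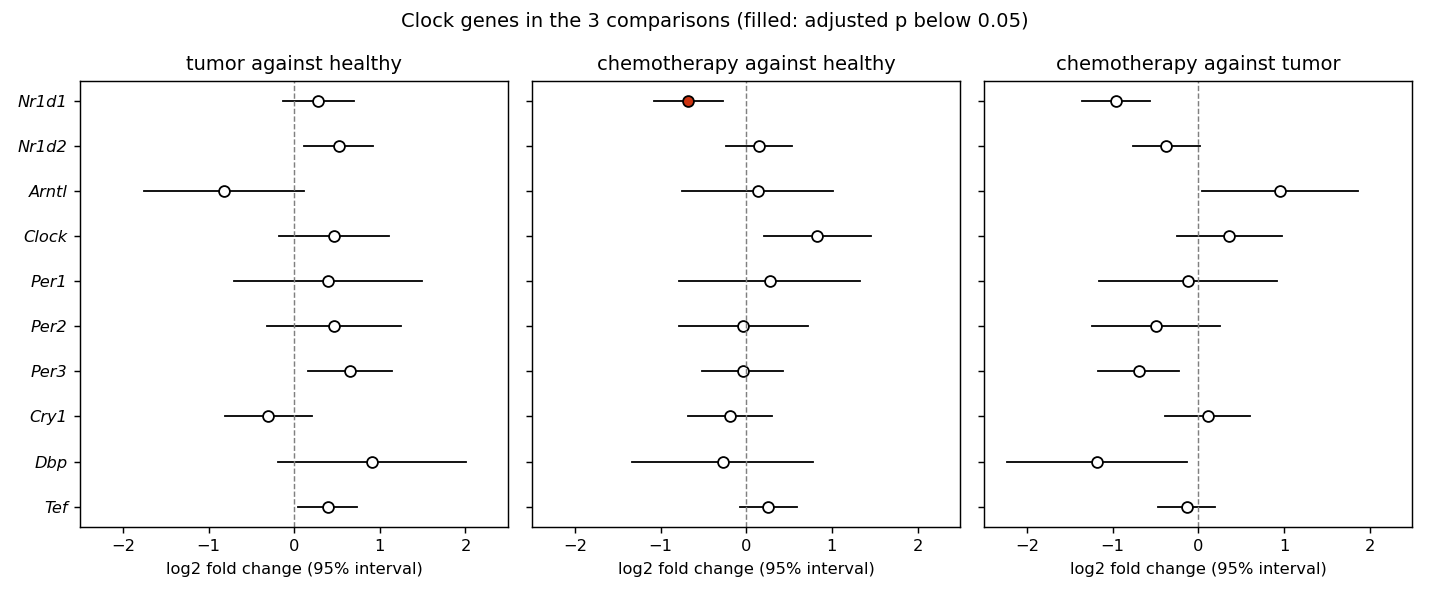
Log2 fold change of each clock gene in the 3 comparisons, with its 95% interval from edgeR's quasi-likelihood fit. Nr1d1 is at -0.68 in chemotherapy against healthy and -0.96 in chemotherapy against tumor, and most intervals of the other 9 genes cross 0.

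Within groups the clock genes varied together: samples high in Arntl were low in Dbp, Per1, Per2, Per3, Tef and Nr1d2. Log2 CPM were centred on their group means over the 16 samples, and the 45 gene pairs were tested by permutation within groups. After Benjamini-Hochberg adjustment over these 45 pairs, 26 were called, 16 positive and 10 negative. The share of pairs called among all genes was not computed. With adjustment over all 11855 other tested genes, no gene was called with Arntl, the other clock genes included. Of the 28 pairs among the 8 genes other than Nr1d1 and Clock, 26 were called by r, and so were 0 of the 17 pairs that include Nr1d1 or Clock. By rho 27 pairs were called, these 26 and Nr1d1 with Dbp.

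Arntl ran opposite to its repressor and output genes. With Per3 it had r = -0.94 and rho = -0.92 (permutation p = 7.0e-05 for r, adjusted 0.0011). With Dbp it had r = -0.91 and rho = -0.90 (permutation p = 0.00020, adjusted 0.0018), and with Per1 r = -0.90 and rho = -0.89. Per2 gave r = -0.84, Tef -0.83 and Nr1d2 -0.77. Cry1 was the exception among the inhibitors and rose and fell with Arntl, at r = 0.69 and rho = 0.69 (adjusted permutation p = 0.0101). Per2 and Per3 moved together at r = 0.89 and rho = 0.92.

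Nr1d1 followed this less closely by r, although it and Arntl are linked in the loop. Its r with Arntl was -0.23 and rho -0.44 (permutation p = 0.389 for r), with Dbp 0.45 and 0.58 (permutation p = 0.0625 for r and 0.0152 for rho, adjusted 0.0970 and 0.0270), and with its relative Nr1d2 0.13. By r its lowest adjusted permutation p was 0.0594, with Clock, at r = -0.52.

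The pattern was checked without the samples farthest out. Without the 2 samples farthest from the median of the first gene, all 26 called pairs kept their sign, with a smallest size of r of 0.55. Arntl with Dbp was -0.83 there and with Per3 -0.93. Within the 11 VM samples all 26 kept their sign too, with a smallest size of 0.63 (Arntl with Dbp -0.83, with Per3 -0.93). Not all of the 26 were still called there after adjustment, Per1 with Per2 and Nr1d2 with Per2 being among those lost. Library 5 is the only healthy VM sample, so centring sets it to the group mean and it adds nothing there. No sample was left out within the VM set, so that check does not bear on single samples. The 5 MB samples are too few for a value. Leaving out 1 of the 16 samples at a time gave 24 to 29 called pairs. For Arntl, healthy library 5, tumor library 9 and chemotherapy libraries 11 and 14 lay apart from the rest of their groups. They were not left out together, so these checks do not show whether the pattern rests on them. The largest gap between neighbouring centred Arntl values was 0.46 of a range of 2.57 (log2). Centring on group means can blur a split, so this gap does not tell whether the samples form clusters. Uncentred, log2 Dbp minus log2 Arntl ran from -2.07 to 3.31. No sample lay between 0.49 (healthy library 4) and 1.72 (chemotherapy library 14). With depth Arntl had r = -0.57, Dbp 0.53 and Per1 0.70 (adjusted permutation p = 0.132, 0.132 and 0.0864), and the part of depth in these pairs was not tested.

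**Figure D3:**
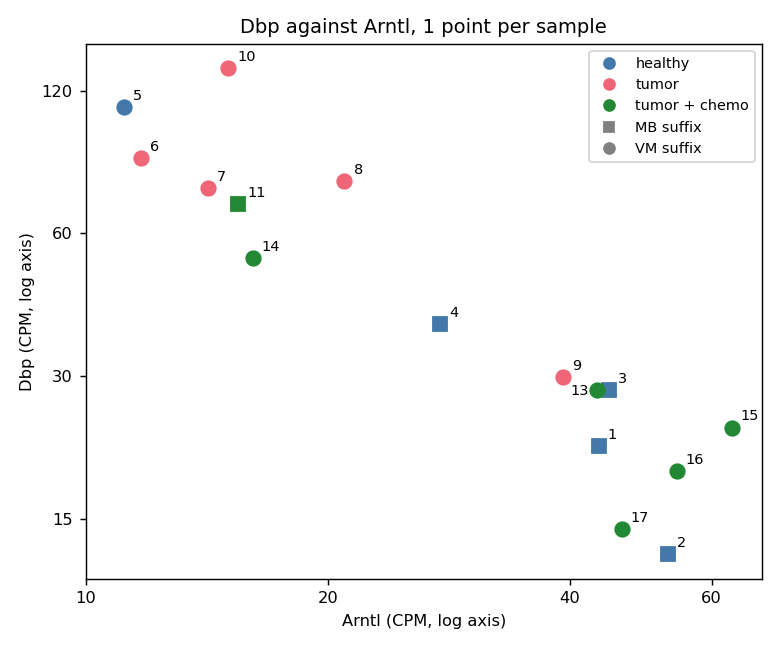
Dbp against Arntl in each of the 16 samples, in CPM on log axes, coloured by group and labelled by library number. Samples run from high Arntl and low Dbp to low Arntl and high Dbp in every group; healthy library 5 (11.2 and 111 CPM) and tumor library 9 (39.2 and 29.9 CPM) lie away from the rest of their groups.

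**Figure D4:**
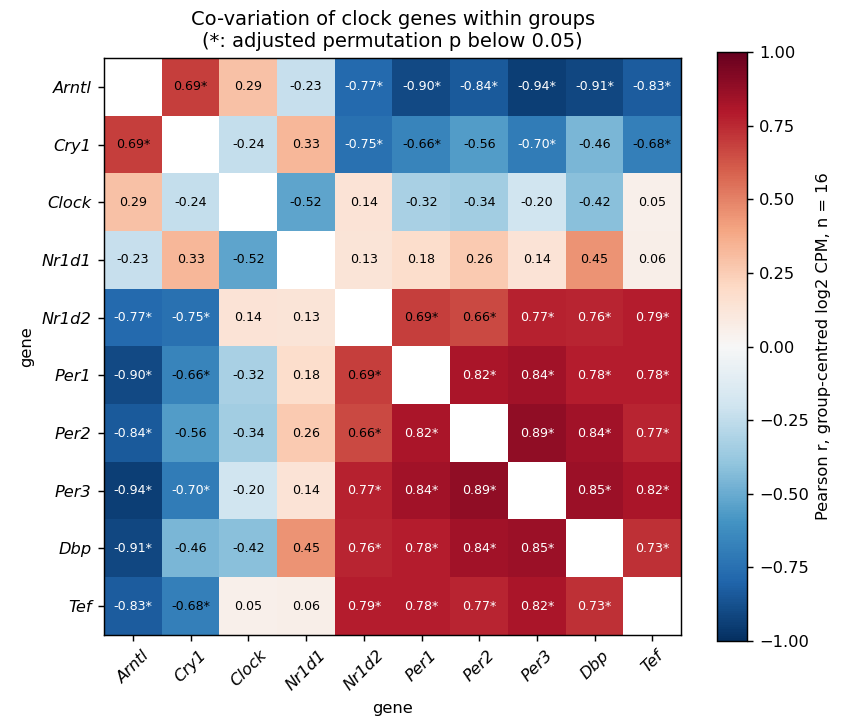
Pearson r of group-centred log2 CPM for all pairs of the 10 clock genes over 16 samples, on a colour scale from -1 to 1. Arntl and Cry1 are negative with the Per genes, Dbp, Tef and Nr1d2, from Arntl with Per3 at -0.94, and the columns of Nr1d1 and Clock are paler.

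Per1, Dbp, Arntl and Per2 varied more within groups than most of the transcriptome. The within-group SD (log2) was 0.954 for Per1, 0.947 for Dbp, 0.833 for Arntl and 0.706 for Per2, at percentiles 97.9, 97.8, 95.7 and 91.2 of the 11856 tested genes, whose median was 0.358. Among the 1000 genes nearest in level the percentiles were 99.4, 99.5, 99.5 and 98.5. Clock followed at 0.560. Nr1d1 at 0.351, Nr1d2 at 0.327 and Tef at 0.258 lay under that median. Among the 1000 genes nearest in level they stood at percentiles 73.5, 68.8 and 48.7.

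**Figure D5:**
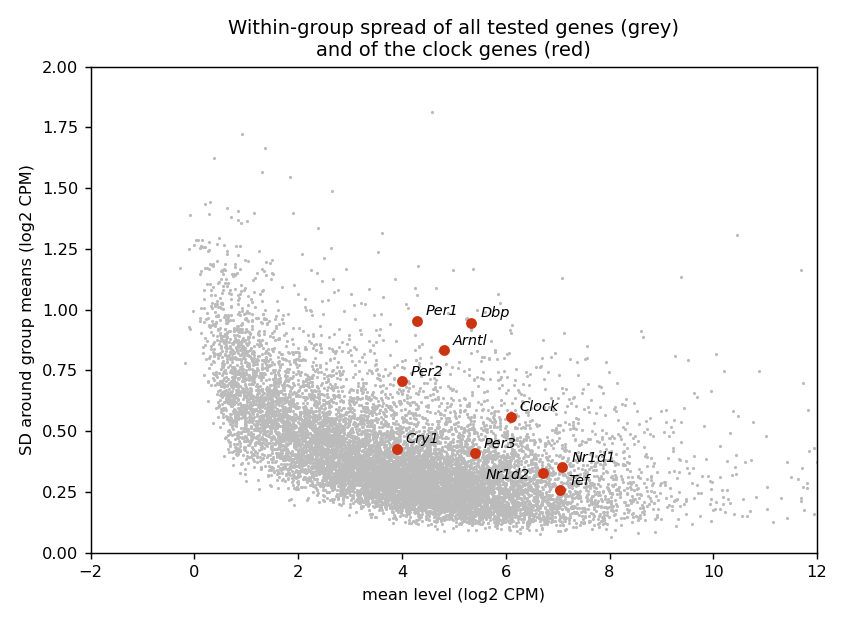
Within-group SD of log2 CPM against mean level for all tested genes (grey), with the 10 clock genes marked; 29 genes lie outside the axes. Per1, Dbp and Arntl stand near the top of the cloud at their level (SD 0.954, 0.947 and 0.833), and Tef (0.258) lies below its middle.

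Other genes of the loop shared the pattern in part. Every tested gene other than Arntl was set against Arntl by the same permutation test. None of the 11855, the other clock genes included, passed after adjustment over all of them, and 3.56% had an unadjusted permutation p under 0.05. Of the 15 tested partner genes (receptors, repressors and the enzymes that mark or degrade clock proteins), 2 reached that unadjusted level with a positive r and 4 with a negative one. Npas2, a stand-in for CLOCK, had r = 0.80 and Nfil3, a D-box repressor, 0.88. Opposite in sign were Ciart (-0.88), Bhlhe40 (-0.76), Bhlhe41 (-0.71) and Cry2 (-0.61), all genes of repressors of the BMAL1 pair. Of 18 muscle output genes, 2 reached it with a positive r and 6 with a negative one, among them Usp2, a deubiquitinase (-0.86), and Pdk4, a kinase that slows glucose oxidation (-0.70). Of the 15 glucocorticoid-responsive genes 1 reached it, and of the 17 immediate-early genes 2, all with a negative r. The 8 genes named here were chosen after their values were seen.

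Between groups few genes of the output, glucocorticoid and immediate-early lists were called. With chemotherapy against healthy none of the 18 output genes was called by edgeR; the smallest p-values were those of Tbc1d1 at -0.71, Slc2a4, the insulin-responsive glucose transporter, at -0.30, and Hk2, a hexokinase, at -0.52 (edgeR adjusted p = 0.0506, 0.0553 and 0.0587). None of the 15 glucocorticoid genes was called; Sult1a1, Foxo1 and Klf9 came nearest at 0.77, -0.53 and 0.54 (edgeR adjusted p = 0.0565, 0.0710 and 0.0836).

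Of the 17 immediate-early genes, 2 were called lower with chemotherapy than in healthy muscle. Of all genes, 6.41% were called lower there and 13.7% in either direction. Dusp1, a phosphatase that switches off stress kinases, fell from 122 ± 49.0 to 50.2 ± 11.4 CPM (-1.28 ± 0.24 log2, edgeR adjusted p = 0.0261). Its groups did not overlap, and 1.97% of all genes lay wholly below healthy in this way. Jun, a stress-induced transcription factor, fell from 129 ± 24.4 to 86.7 ± 22.8 (-0.57 ± 0.17, edgeR adjusted p = 0.0378). Like Nr1d1, Dusp1 and Jun were not called without any 1 of healthy libraries 1, 3 and 4 or chemotherapy libraries 13, 14 and 15, where edgeR called 0 genes. List medians in that comparison were -0.018 for partners, -0.047 for outputs, 0.066 for glucocorticoid genes and -0.30 for immediate-early genes (log2), beside -0.018 for all genes. In the other 2 comparisons no gene of the 4 lists was called by edgeR.

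Among the 8851 genes whose mean level reached 5 CPM, the 10 clock genes left aside, those most like Arntl across the 16 samples were Lrrc30 (r = 0.94), Slc41a3 (0.90), Zhx2 (0.89), Nfil3 (0.88) and Smad3 (0.87). Among the most opposite to Arntl were Usp2 and Cpt1a (both -0.86), Arrdc2 (-0.84) and Wnt16 (-0.81). Among the genes most like Dbp were Bhlhe41 (0.85), Ephx1 (0.81), Gpr146 (0.81) and Slc25a34 (0.80). Its most opposite genes in that ranking were Nfil3 and Lrrc30 (both -0.86), Acsl6 (-0.85), Wsb1 (-0.84) and Prkag3 (-0.83). These r are of group-centred log2 CPM and describe likeness only.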

How the data were processed

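The deposited file is one table of raw counts per gene, made by the authors from gastrocnemius total RNA with a ribosomal-depletion stranded kit, per the labels' protocols. The tools listed in the submitters' processing notes are TopHat2 2.0.10, Bowtie2, CASAVA 1.9, FastQC 0.11.4 and Trim Galore 0.4.1, with no roles. Build, annotation, counter and its strand setting were not given in the sources used here. Of 32883 entries, 388 have no name and hold 0.206% of counts; they were left out.

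Counts were fitted with edgeR 4.0.16 in R 4.3.3 (TMM scaling, filterByExpr with a minimum count of 10, robust quasi-likelihood, two-sided) in 1 model of 3 groups, 16 samples and 13 residual degrees of freedom, with Benjamini-Hochberg adjustment over 11856 genes and calls at 0.05. Levels are CPM after TMM scaling, not per length, so they are not compared between genes. Correlations used 100000 permutations within groups of log2 CPM with a prior count of 2, for which 1e-05 is the smallest p possible. DESeq2 1.42.0, limma 3.58.1 and sva 3.50.0 gave alternatives. The edgeR step was tested on simulated data. Named genes were the 10 members, list genes called in any comparison or otherwise the 3 with the smallest p in chemotherapy against healthy, and the 5 genes most and least like Arntl and Dbp. List genes named for their correlation with Arntl were chosen after their values were seen. Members and lists were chosen with earlier results of these data known. Marker genes outside the table, such as Myh1, Myh2 and Ttn, were not analysed here. A few genes that the naming rule picks are not reported here.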

Additional observations from a re-analysis of the deposited data

Results flagged for a closer look

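Of the 30 gene-by-group sets of samples examined for a lone extreme value, 2 had one, and chance marks about 1 in 20. Nr1d2 in healthy library 5 was the highest of its group at 137 CPM, with the next at 84.0, a gap of 0.883 of the group's range in log2 CPM. Per2 in tumor library 9 was the lowest of its group at 12.5 CPM, with the next at 23.1, a gap of 0.815 of the range in log2 CPM.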

How the results depend on the processing

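The labels pair no samples, since their library numbers are unique. The file header's alignment numbers recur, 39 in healthy library 2 and tumor library 9, 40 in healthy library 3 and tumor library 10, 41 in healthy libraries 4 and 5, and 1 in chemotherapy libraries 11 and 14, and nothing says what they mark. Deviations from group means correlated across genes at 0.34, 0.24, -0.52 and -0.18 in these pairs. The pairs numbered 41 and 1 each lie within a single group, where centring on the group mean by itself pulls such values below 0. Their values are thus not comparable with those of the pairs across groups. A replicate block for these numbers in edgeR, chosen after seeing the data, left 0 genes called between tumor and healthy samples. In chemotherapy against healthy it left 0 genes higher, 0 lower and 0 members lower, with Nr1d1 at -0.73 (adjusted p = 0.177) and Per1 at -0.57. For chemotherapy against tumor the block called 0 genes higher and 3 lower, of which 2 were members (Per3 at -1.18 and Dbp at -1.91). Values are log2 fold changes from edgeR unless said; where a direction turned, the cause was not tested. Of the 30 member results, 11 kept their direction in all 13 settings and 16 left-out samples.

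For tumor against healthy, DESeq2 called 17 genes higher and 23 lower. Among VM libraries alone Nr1d2 was -0.040, Arntl 0.85, Per1 -0.70, Per2 -0.24, Cry1 0.14, Dbp -0.46 and Tef -0.12. With 1 surrogate variable Clock was -0.093. Without healthy libraries 1, 3 and 4, Clock was -0.062, Per1 -0.15 and Cry1 0.073.

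For chemotherapy against healthy, total-count scaling called 1669 genes higher and 348 lower, 1 member higher (Clock) and 0 lower, with Per2 at 0.081 and Per3 at 0.078. With no filter 474 genes were called higher and 410 lower. DESeq2 called 1454 genes higher and limma-voom 1574, each with 1 member higher (Clock). With 17 libraries Arntl was -0.00028 and Per2 0.11. The suffix as a term left 0 genes called higher, 0 lower and 0 members lower, with Nr1d2 at -0.010. VM libraries alone likewise left 0, 0 and 0, with Nr1d2 at -0.44, Per1 -1.34, Cry1 0.31 and Tef -0.32. So did 1 surrogate variable (0, 0 and 0), with Nr1d2 at -0.056, Arntl -0.19, Clock -0.060, Per2 0.15 and Cry1 0.16. Leaving out healthy libraries 1, 3 and 4 also left 0, 0 and 0, with Nr1d2 at -0.12, Per1 -0.26 and Cry1 0.19.

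For chemotherapy against tumor, DESeq2 called 2 genes higher and 7 lower, 1 member (Nr1d1) among the latter. With 17 libraries Per1 was 0.14. With 1 surrogate variable 4 genes were called higher and 4 lower, 1 member (Nr1d1) among the latter.

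Leaving out 1 sample at a time gave, for tumor against healthy, 0 to 245 genes higher and 0 to 259 lower, the most without healthy library 2. For chemotherapy against healthy it gave 0 to 2024 genes higher, 0 to 1775 lower, 0 to 1 member higher and 0 to 1 lower; the gene counts were 0 without healthy library 1, 3 or 4 or chemotherapy library 13, 14 or 15, and highest without healthy library 2. Arntl ran from -0.11 to 0.31, Per1 from -0.25 to 0.76, Per2 from -0.29 to 0.21, Per3 from -0.24 to 0.15 and Dbp from -0.61 to 0.45. For chemotherapy against tumor it gave 0 to 3 genes lower and 0 to 1 member lower, with Per1 from -0.65 to 0.066 and Cry1 from -0.039 to 0.26. Depth limits the low genes most: Per1 had as few as 17 counts in a sample.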
